A study of Drosophila melanogaster with 3 samples.

Results

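The regions described here are the intronic peaks of a Drosophila melanogaster chromatin immunoprecipitation (ChIP-seq) study of the protein Chiffon that lie near, but not at, the start of a gene. They were chosen by position. A peak of the authors' dm6 list that passed the irreproducible discovery rate (IDR) procedure was taken as a member when its summit lay inside a gene, in no annotated exon of any gene, and over 500 to 2000 bp from the nearest start of a protein-coding transcript. Of 3684 IDR peaks, 530 met the rule (14.4%). The other peaks comprised 1641 within 500 bp of a protein-coding start, 864 in introns farther than 2000 bp from one, 530 between genes and 119 in exons. The study has 1 group of 3 biological replicates. Each replicate was made from whole embryos of both sexes, 0 to 24 hours old, of a transgenic line that stably expresses the RA isoform of chif (chiffon) with a green fluorescent protein (GFP) tag at its C terminus. An antibody against GFP recovered the protein, so signal reports the tagged product, and the pooled tissues and ages of the embryo cannot be told apart. No other genotype or untagged library was analysed here, and how much of the chif locus the transgene carries is not given in the sources used here.

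Chiffon belongs to the Dbf4 family, whose members switch on the Cdc7 kinase at the start of DNA replication, and another portion of the protein works with the histone acetyltransferase Gcn5. In flies many enhancers lie in introns, often in the first intron, and many genes have alternative start sites, so the sequence just inside a gene can hold both enhancers and the flanks of further promoters. The first intron is the one between the first and second exon of a transcript. An intron can be the first of 1 transcript of a gene and a later one of another.

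The 201 bp about the summits of 5 strong members are printed first because they show the base composition and the presence or lack of the short words described further on. They are the 5 members of highest signal, each found among the 3684 highest regions of every replicate. The letters were read from the RefSeq genome sequence of the same assembly, dm6, and are given 5′ to 3′. Capitals mark every match of the words CAGTGC and CAGTGT and of their reverse complements, and all other letters are in lower case.
ush, chr2L:480989-481189, plus strand: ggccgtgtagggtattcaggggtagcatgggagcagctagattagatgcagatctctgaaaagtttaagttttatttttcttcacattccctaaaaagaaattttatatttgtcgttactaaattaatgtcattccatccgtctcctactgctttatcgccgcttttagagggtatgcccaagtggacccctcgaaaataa
CG11050, chr2L:6612632-6612832, plus strand: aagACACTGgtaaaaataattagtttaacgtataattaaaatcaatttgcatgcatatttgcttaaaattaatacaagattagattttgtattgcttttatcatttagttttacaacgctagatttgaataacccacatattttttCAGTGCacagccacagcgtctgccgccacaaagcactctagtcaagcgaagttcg
Lk6, chr3R:11760951-11761151, plus strand: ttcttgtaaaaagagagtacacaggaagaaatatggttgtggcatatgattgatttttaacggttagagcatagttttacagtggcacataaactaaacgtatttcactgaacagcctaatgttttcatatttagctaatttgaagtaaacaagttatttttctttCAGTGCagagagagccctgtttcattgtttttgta
chif, chr2L:16351175-16351375, plus strand: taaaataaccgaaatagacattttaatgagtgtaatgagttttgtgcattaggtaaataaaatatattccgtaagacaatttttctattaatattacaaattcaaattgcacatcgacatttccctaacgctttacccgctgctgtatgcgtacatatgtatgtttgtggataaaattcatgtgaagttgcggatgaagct
CG9663, chr2L:3302084-3302284, plus strand: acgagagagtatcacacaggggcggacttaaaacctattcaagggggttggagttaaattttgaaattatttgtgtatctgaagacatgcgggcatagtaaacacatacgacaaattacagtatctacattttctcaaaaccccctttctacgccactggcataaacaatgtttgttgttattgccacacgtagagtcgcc
The windows of CG11050 and Lk6 held 2 matches and 1 match, and the windows of ush, chif and CG9663 held none. The intron around the CG11050 summit is 140 bp long, so its 201 bp window also holds exon bases. The 2 marked words of that window span more than 140 bp and cannot both lie wholly inside the intron. G+C content was 39.8% in the ush window, 32.3% in the CG11050 and Lk6 windows, 31.3% in the chif window and 40.8% in the CG9663 window.

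The next 4 windows are the strongest members, outside the first set, that carried the words on both sides of the summit and reading away from it. They show what the orientation described further on looks like in single regions. Positions left of the summit hold the reverse complement in capitals, and positions right of it hold the word itself.
NFAT, chrX:13641130-13641330, plus strand: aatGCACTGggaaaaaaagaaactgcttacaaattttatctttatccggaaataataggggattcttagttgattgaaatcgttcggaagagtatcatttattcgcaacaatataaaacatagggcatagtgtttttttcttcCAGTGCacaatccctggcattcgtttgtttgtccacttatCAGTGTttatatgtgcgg
CHES-1-like, chrX:7698319-7698519, plus strand: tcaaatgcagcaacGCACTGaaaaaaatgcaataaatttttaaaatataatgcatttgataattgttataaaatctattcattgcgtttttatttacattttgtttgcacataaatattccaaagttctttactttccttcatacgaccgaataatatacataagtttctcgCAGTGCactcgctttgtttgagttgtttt
Myo61F, chr3L:1319211-1319411, plus strand: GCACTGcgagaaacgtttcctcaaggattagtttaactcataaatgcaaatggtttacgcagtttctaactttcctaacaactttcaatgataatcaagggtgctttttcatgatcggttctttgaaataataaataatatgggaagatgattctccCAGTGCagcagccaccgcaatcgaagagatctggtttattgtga
CG32264, chr3L:3802803-3803003, plus strand: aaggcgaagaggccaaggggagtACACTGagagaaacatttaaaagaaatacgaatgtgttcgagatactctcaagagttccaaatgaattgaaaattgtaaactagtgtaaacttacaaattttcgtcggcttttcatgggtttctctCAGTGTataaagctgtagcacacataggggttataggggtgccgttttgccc
NFAT carried 1 such word to the left and 2 to the right of the summit, and CHES-1-like, Myo61F and CG32264 carried 1 on each side. These regions had signal values of 471, 281, 233 and 181, against a median of 144 over all members.

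The 20 strongest members found in all 3 replicates are described with their ranks in each replicate. The authors' signal value has no stated scale and was used to rank regions within a list, and a rank of 1 is the highest region of a replicate. The highest member of the list, with a signal value of 2129, lay in the first intron of ush, which encodes the Friend-of-GATA cofactor U-shaped, 1401 bp upstream of a start of cbt, a zinc finger transcription factor gene. It ranked 2, 1 and 1 in replicates 1, 2 and 3. A second ush member, 1389 bp upstream of a further ush start, had a signal value of 159 and ranks of 1806, 1445 and 2057. The same host thus held the top of the list and a region near its middle.

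Members at chif itself and at its kinase partner were present too. The chif member had a signal value of 1282, lay 992 bp upstream of a chif start inside the overlapping genes chif and Hyls1, and ranked 30, 12 and 4 in the replicates. A weaker peak with its summit 200 bp to the right, with a signal value of 113, overlapped the same replicate regions. The part of the transgene in the signal at chif was not tested. The Cdc7 member, 1588 bp downstream of the Cdc7 start in a later intron, had a signal value of 255 and ranks of 493, 687 and 859.

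Further strong members lay in transcription and chromatin genes. Trl encodes the GAGA factor, and its strongest member had a signal value of 719 and ranks of 79, 37 and 61. Trl held 2 further members, with signal values of 166 and 125. Adf1, a transcription factor gene, had a member of 709 with ranks of 36, 71 and 111. Mad, the Smad of the bone morphogenetic protein pathway, had a member of 548 with ranks of 124, 122 and 91. All of these regions except the 2 weaker Trl members were among the highest 124 of every replicate. HmgZ, a high mobility group protein gene, held 3 members with signal values of 925, 193 and 116. The first of them ranked 28, 23 and 43, while the weakest ranked 11181, 1636 and 3758 and so was among the highest regions of replicate 2 and not of the other replicates.

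Of the other 14 among the 20 strongest, 5 lay in genes of kinases, a phospholipase and metabolic enzymes. Lk6, a kinase of the translation factor eIF4E, had a member of 1331 that ranked 12, 14 and 13. The member of for, a cGMP-dependent protein kinase gene, had a signal value of 547 and ranks of 167, 111 and 88. The member of norpA, the phospholipase C of the phototransduction cascade, had a signal value of 586 and ranks of 77, 107 and 98. These ranks lay close together across replicates. The member of Zw, the glucose-6-phosphate dehydrogenase gene, had a signal value of 575 and ranks of 90, 104 and 107. The member of LPCAT, a lysophospholipid acyltransferase gene, had a signal value of 767 and ranks of 42, 60 and 47. The member of cno, which encodes the junction protein Canoe, had a signal value of 788 and varied more, with ranks of 163, 45 and 19. NFAT, a transcription factor gene, held 3 members of 685, 471 and 164. The remaining names among the 20 strongest were CG11050 at 1442, CG9663 at 1030, CG32772 at 1011, CG3726 at 718, CG31635 at 661, CG9837 at 604 and Reph at 588.

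**Figure D1:**
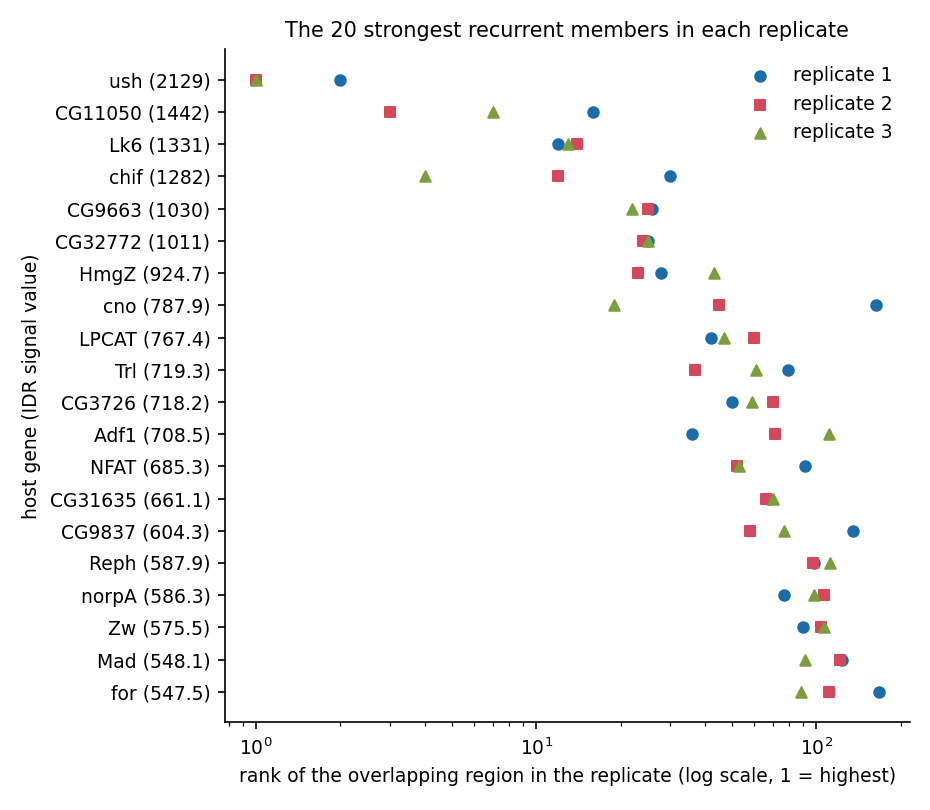
Rank of the region that each member overlapped in replicates 1, 2 and 3 (horizontal, log scale, 1 is the highest), for the 20 strongest members found in all 3 replicates, with the host gene and the IDR signal value on the vertical axis. All points lie among the highest 167 regions of their replicate, and cno has the widest spread, from 19 to 163.

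The signal of members spanned the whole list. Signal values ran from 92.4 to 2129, with a median of 144 (quartiles 112 and 209), against a median of 145 for the other IDR peaks, 152 for peaks at start sites and 136 for introns farther away. In each replicate the same position rule was applied to its 3684 regions of highest signal, and it gave 442, 552 and 523 regions (506 ± 57.0, SD, n = 3). The median rank of these regions was 1617, 1924 and 1804 in replicates 1, 2 and 3, against 2033, 1880 and 1872.5 for regions in farther introns. The difference, as a share of the 3684 regions, was -11.3%, 1.19% and -1.86% (mean -3.99 ± 6.51, SD, n = 3, exact sign-flip permutation test, two-sided, p = 0.5). The mean difference was smaller than its SD, and the replicates differed in sign. It was -0.33% without replicate 1 and -7.34% with the 7368 highest regions of each replicate, where all 3 replicates had the same sign (p = 0.25 in the same exact test). With 3 replicates this sign-flip test cannot give a p under 0.25, so it cannot pass a threshold of 0.05, and the direction and spread over the replicates are given beside each p. The p-values measure only the spread between these replicates.

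Of the 530 members, 315 overlapped the highest regions of all 3 replicates (59.4%, 95% Wilson interval 55.2 to 63.5, counting error only), which is near the 59.1% of all IDR peaks. The interval takes members as independent, though 30 of them overlapped another member. A further 133 were found in exactly 2 replicates, 74 in 1 and 8 in none. By replicate, 72.3%, 87.0% and 83.2% of members were recovered in replicates 1, 2 and 3 (80.8% ± 7.64, SD, n = 3). Replicate 1 was the one missing for 81 members found in the other replicates, against 18 for replicate 2 and 34 for replicate 3. The IDR list was made from these replicates, so the counts describe the list. Among the 265 members of higher signal, 92.8% were found in all 3 replicates, against 26.04% of the 265 of lower signal. Those found in none of the highest sets were in ena, Atg1, Pkc98E, Msp300, ovo, bbx, Pgant9 and sqz, with signal values of 93 to 102. All 530 members overlapped some region of the full list of replicate 2, and 529 and 499 did so in replicates 3 and 1.

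Intronic summits were denser near start sites than far from them. In the IDR list there were 51.5 summits per Mb of intron over 500 to 2000 bp from a start, against 20.1 per Mb farther away, from 10.3 and 43.1 Mb of intron that the rule could reach. The replicates gave 43.0, 53.7 and 50.8 per Mb in near introns (49.2 ± 5.54, SD, n = 3), against 19.0, 19.3 and 20.6 per Mb in far introns (19.6 ± 0.83, SD, n = 3). The log2 ratio was 1.18, 1.48 and 1.31 (1.32 ± 0.15, SD, n = 3, exact sign-flip permutation test, two-sided, p = 0.25, the smallest possible). Every replicate was higher in near introns, and the groups of values did not overlap. Within the members the density was highest next to the promoter: 60.3 per Mb over 500 to 1000 bp with 238 members, 46.8 per Mb over 1000 to 1500 bp with 159, and 45.2 per Mb over 1500 to 2000 bp with 133. The replicate means were 59.1 ± 5.56, 45.3 ± 7.03 and 40.3 ± 3.86 per Mb (SD, n = 3 each), and the bins beyond 1000 bp overlapped within their spread. Within each replicate the density still fell between these bins, from 37.7 to 36.0, from 51.5 to 43.5 and from 46.8 to 41.4 per Mb. Median signal values in the same bins were 151, 141 and 131.

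Most members lay in a first intron. The intron holding the summit was the first of every transcript that carries it for 286 members, the first of some transcripts and a later one of others for 154, and a later one throughout for 90. A first intron in at least 1 transcript thus held 440 members (83.0%), against 66.5% of the eligible bases. The replicates gave 82.1%, 83.0% and 83.7% (82.9% ± 0.81, SD, n = 3), a difference from eligible sequence of 16.4 ± 0.81 percentage points (exact sign-flip permutation test, two-sided, p = 0.25). The difference was 11.3 points with the first intron of the Ensembl canonical transcript alone. Where positions with an exon within 100 bp were left out, a setting chosen after seeing the data, it was 10.6 points, with 510 members. In far introns the share was 59.1% ± 2.53 over the replicates (SD, n = 3), against 38.03% of eligible bases. By distance, the replicate means for members were 84.9% ± 1.09, 85.5% ± 1.74 and 75.8% ± 0.65, against 71.5%, 65.4% and 61.2% of eligible bases. In each of the 3 distance bins all 3 replicates were above the eligible share.

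**Figure D2:**
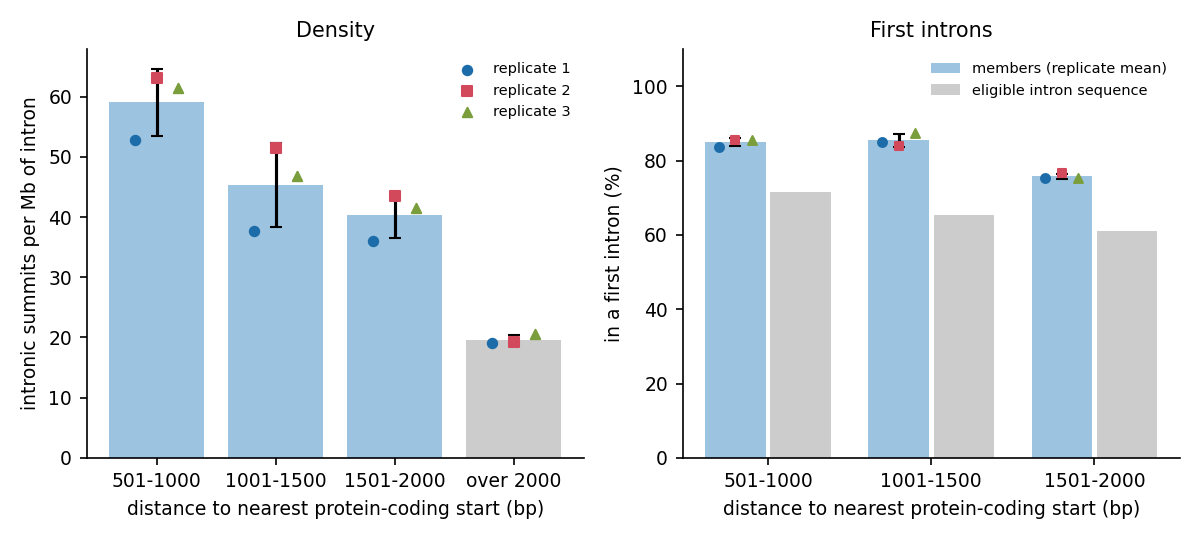
Left, intronic summits per Mb of intron by distance to the nearest protein-coding start, with 3 bins of members before farther introns in grey. Right, the share in a first intron, members in blue and eligible intron sequence in grey. Bars for regions are means of 3 replicates with SD and points are the replicates. The replicate means of density fall between 40.3 and 59.1 per Mb in the near bins, against 19.6 per Mb beyond 2000 bp.

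Members lay on both sides of the nearest start. Of 530, 329 lay downstream of it (62.1%) and 201 upstream, and the median distance was 1075 bp (quartiles 742.5 and 1504). For 473 members the nearest start belonged to the host gene, with 320 downstream of it and 153 upstream. For the other 57 it belonged to another gene, with 9 downstream and 48 upstream. Downstream positions made up 62.2%, 63.8% and 64.1% of the regions in the replicates (63.3% ± 0.99, SD, n = 3), against 66.7% of eligible bases. The difference was -3.31 ± 0.99 percentage points (exact sign-flip permutation test, two-sided, p = 0.25), and it was -1.15 points where positions with an exon within 100 bp were left out. Of the members, 303 had a host start site 3′ of the summit (57.2%), against 368 of 864 far intronic peaks (42.6%). The 153 members upstream of a host start have such a start by their position, so the rule itself shapes this share. No share of eligible bases is given for it. The intron around a member had a median length of 4959 bp (quartiles 2253 and 11360), against 14641 bp for far intronic peaks, whose rule needs longer introns.

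Most start sites nearest to a member carried no IDR peak themselves. The nearest start carried an IDR peak within 500 bp for 98 members (18.5%), against 13.6% of all 19252 protein-coding start sites and 16.2% of far intronic peaks. The replicates gave 19.0%, 18.1% and 22.0% for the regions (19.7% ± 2.03, SD, n = 3), against 12.7%, 13.9% and 12.9% of start sites (13.2% ± 0.63, SD, n = 3) and 15.4% ± 2.63 of regions in far introns. The difference from all start sites was 6.52 ± 2.44 percentage points (exact sign-flip permutation test, two-sided, p = 0.25). All 3 replicates showed the same direction. Another IDR peak lay within 2 kb of 209 members (39.4%), against 223 far intronic peaks (25.8%), and 30 members overlapped another member.

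The bounds of the rule cut through a continuous range of distances. Just inside the lower bound stood mip120 at 502 bp with a signal value of 105 and rib at 506 bp with 112. Just outside it were ced-6 at 500 bp with 111 and wkd at 499 bp with 146. Just inside the upper bound were NFAT at 1993 bp with 164 and Dif at 1991 bp with 151. Just outside it were Lpin and kermit, which share a peak, at 2003 bp with 94.98, and CG13917 at 2006 bp with 97.0.

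The 530 members fell in 443 host genes, of which 378 held 1 member, 48 held 2, 14 held 3, 2 held 4 and 1 held 6. Where several genes contained a summit, which was so for 50 members, the gene owning the nearest start was taken and then the shortest. The gene with 6, CG1677, is a long gene whose span encloses the starts of unc-119, brk, CG42780 and CBP, and its members were nearest to those starts. Its strongest member, 1017 bp upstream of the CBP start, had a signal value of 393 and ranks of 271, 173 and 357. The hosts with 4 were Svil, the fly supervillin gene, with signal values of 113 to 168, and Tpr2, a chaperone gene, with 104 to 244. Those with 3 included the kinase genes Src64B, Tlk and Doa, the transcription and chromatin genes Trl, psq, shn and tou, the receptor gene Tre1, and Kank, px, NFAT, HmgZ, CG10543 and CG32264. Some of these members overlapped the same replicate region, as the pairs in Svil, Tre1, tou and CG10543 did, so they are not independent.

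By chromosome arm, 81 members were on 2L, 101 on 2R, 105 on 3L, 111 on 3R, 131 on X and 1 on 4. Per Mb of eligible intron the X held 63.7, against 44.5 to 52.1 on the arms of chromosomes 2 and 3. The replicates gave 56.9, 65.2 and 57.9 on X (60.0 ± 4.52, SD, n = 3), against means of 41.5 ± 5.07 on 2L, 49.4 ± 4.86 on 2R, 49.8 ± 7.46 on 3L and 47.2 ± 7.09 on 3R. The X value was the highest of the arms in every replicate, and no test of it was made. The embryos were of both sexes and the sex ratio was not measured. The strongest members of the arms were those in ush on 2L, HmgZ on 2R, Trl on 3L, Lk6 on 3R, CG32772 on X and Asator on 4, the last with a signal value of 96.9.

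Host genes were then counted by functional list, beside the length of intron the rule could reach. Here every protein-coding gene that contains a summit counts as a host, also where genes overlap, so the number is above the 443 given with 1 host per member. Of 9064 protein-coding genes with any such intron, 468 hosted a member (5.16%), with a median of 386 bp of eligible intron each. In the replicates the number was 407, 486 and 458. Sequence-specific transcription factor genes were hosts in 21 of 138 cases (15.2%), and their median eligible length was 2145 bp. Adf1 and NFAT are not on this list. After ush and Mad, its strongest were zfh1, a zinc finger homeodomain gene, at 433, and sima, the fly hypoxia-inducible factor alpha, at 347. Chromatin regulators were hosts in 10 of 48 cases (20.8%) with a median of 774.5 bp. After Trl, the strongest were lola at 263, the histone H3 kinase gene JIL-1 at 259 and the corepressor gene Sin3A at 237.

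Signalling components were hosts in 18 of 105 cases (17.1%), with a median of 1370 bp. The strongest were S (Star), which acts in export of epidermal growth factor receptor ligands, at 458, the insulin receptor gene InR at 421, the Grb2 adaptor gene drk at 338 and wit, a type II bone morphogenetic protein receptor gene, at 334. Cytoskeleton and muscle genes were hosts in 16 of 81 cases (19.8%), with a median of 1409 bp. After cno, the strongest were RhoGAP18B at 364, the dynein heavy chain gene Dhc64C at 287 and RhoGEF64C at 270. RNA-binding protein genes were hosts in 8 of 64 cases (12.5%), with a median of 1072.5 bp, led by mub at 527, brat at 389, ps at 241 and Hrb27C at 209. Neuronal and adhesion genes were hosts in 10 of 132 cases (7.58%), with a median of 2623 bp. They were led by the Netrin receptor gene fra at 359, NetB at 275, Ptp10D at 240 and elav at 205. Replication and Gcn5-related genes were hosts in 2 of 21 cases, chif and Cdc7. Cytosolic ribosomal protein genes were hosts in 0 of 47 cases, with a median eligible length of 270 bp. In 6 of the 8 lists the median eligible length was above that of all genes, so the shares of hosts stand on unequal lengths of intron. Some genes, such as lola and elav, are on more than 1 list. Members per Mb of eligible intron were 52.1 over all protein-coding genes, 255 for chromatin regulators (on 58.8 kb), 85.9 for signalling and 75.2 for cytoskeleton and muscle. They were 59.7 for transcription factors, 54.8 for RNA-binding, 23.2 for neuronal and adhesion and 0 for ribosomal protein genes, the last on only 13.0 kb. For replication and Gcn5-related genes the value was 323, from 3 members on 9.28 kb. Of these, 2 were the members at chif, which overlapped the same replicate regions. The 2 JIL-1 members, counted among chromatin regulators, also overlapped the same replicate regions. The values per Mb are counts, with no test.

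The sequence at member summits was poorer in G+C than other intronic sequence of the same class. Mean G+C content of the 201 bp window was 36.0% (SD over members 5.92), against 41.3% for 1976 lower-ranked regions of the pooled list chosen by the same rule, and 39.7% for 10240 windows spaced through the eligible sequence. The replicates gave 37.9%, 36.0% and 36.5% (36.8% ± 1.02, SD, n = 3), against 44.1%, 40.4% and 40.4% in their lower-ranked regions (41.6% ± 2.13, SD, n = 3). The difference was -4.84 ± 1.19 percentage points (exact sign-flip permutation test, two-sided, p = 0.25), with every replicate lower. It narrowed to -2.19 points over windows of 200 bp either side. Against the other highest regions of the same replicate the difference was smaller, with 36.8% for members and 38.2% ± 1.94 for the others (-1.37 ± 0.94 points, p = 0.25 in the same exact test). It was -0.83 points without replicate 1, -0.49 in windows of 200 bp either side, and -0.53 and -2.53 with the 1842 and 7368 highest regions. Members did not part from far intronic peaks, which had 36.1% in the IDR list. In the replicates, regions in far introns had 38.8%, 35.9% and 36.3%. Members were lower than these in replicate 1 and slightly higher in replicates 2 and 3. Members of higher and lower signal did not part, with 36.0% and 36.1%. AA and TT made up 23.7% of dinucleotides in members, against 21.0% in the lower-ranked regions.

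The dip in G+C was local. In 20 bp bins, members were at 33.3% just right of the summit, against 35.2% for the other IDR peaks and 41.0% for lower-ranked regions. At 250 bp to the right they were at 44.2%, against 44.2% for the other IDR peaks and 42.5% for lower-ranked regions.

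**Figure D3:**
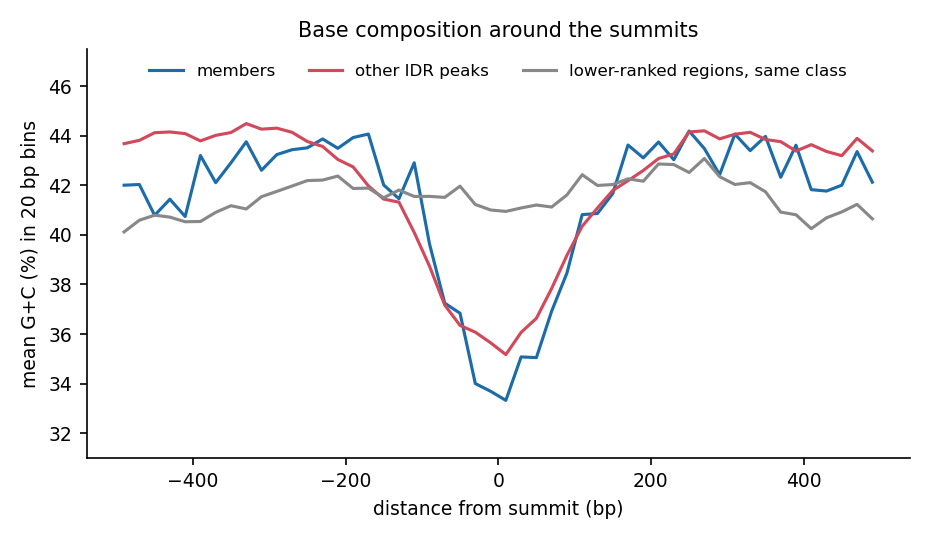
Mean G+C content in 20 bp bins against distance from the summit for members, the other IDR peaks and lower-ranked regions of the same class, all in dm6. Members drop to 33.3% at the summit and return to 44.2% at 250 bp, while lower-ranked regions stay between 40.1% and 43.1%.

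Short motifs of promoter-binding factors were less frequent at members than at peaks on start sites. A motif was counted where its letters matched either strand of the 201 bp window. The letters TATCGATA, bound by Dref, were in 2 members (0.38%), against 7.13% of IDR peaks at start sites and 0.51% of windows of eligible sequence. The letters GGTCACAC, bound by M1BP, were in 3 members (0.57%), against 4.20% and 0.26%. The letters CGATA, which also lie within TATCGATA and are bound by BEAF-32, were in 104 members (19.6%), against 37.5% and 21.8%. In the replicates these gaps to peaks at start sites had the same direction each time (exact sign-flip permutation test, two-sided, p = 0.25 for each). Far intronic peaks were low too, with TATCGATA and GGTCACAC in 0.23% each and CGATA in 19.9%. Against lower-ranked regions of the same class, 4 of 14 motifs were more frequent in members in all 3 replicates. GATAA, bound by GATA factors, was 4.84 ± 3.83 points higher, and TAATTA, bound by homeodomain proteins, was 3.00 ± 0.75 points higher (SD, n = 3, exact p = 0.25 each). GATAA was 2.67 points higher without replicate 1. In the IDR list GATAA was in 42.5% of members, against 36.5% of lower-ranked regions, 38.1% of eligible windows and 39.7% of far intronic peaks. TAATTA was in 15.8% of members, against 12.8% of lower-ranked regions, 15.5% of eligible windows and 14.4% of far intronic peaks. The others were the A tract AAAAAAAA at 2.35 ± 1.48 points and GGTCACAC at 0.30 ± 0.16 points. The GGTCACAC gap rests on few regions, with 0.45%, 0.72% and 0.38% in the replicates, against 0.11%, 0.28% and 0.25% of lower-ranked regions. The A tract did not keep that direction in the IDR list, with 14.3% of members, against 14.5% of lower-ranked regions, 13.2% of eligible windows and 19.9% of far intronic peaks. GAGAG, bound by the GAGA factor, was in 22.6% of members, against 26.3% of lower-ranked regions and 20.6% of eligible windows, while the replicates gave 24.9% ± 1.30 for members, against 23.5% ± 1.71 for lower-ranked regions (SD, n = 3). A match is a description and not a bound site.

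**Figure D4:**
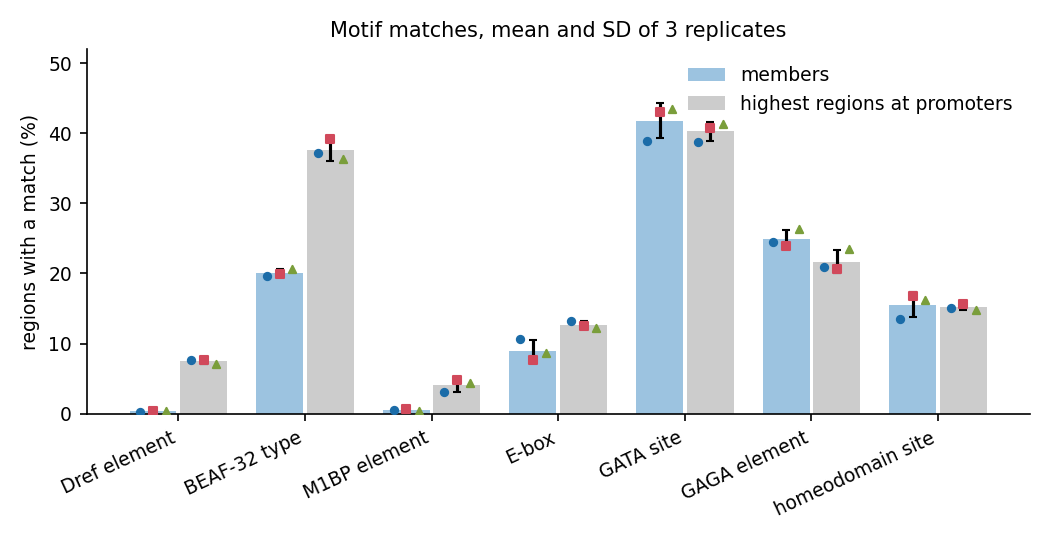
Share of 201 bp windows with a match to each motif, members in blue and the highest regions at start sites in grey. Bars are means of 3 replicates with SD and points are the replicates. The Dref, BEAF-32 and M1BP motifs and the E-box CAGCTG stand lower in members, and the GATA, GAGA and homeodomain motifs do not.

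All 2080 6-letter words, each counted with its reverse complement, were then ranked by their share in members minus that in eligible windows. The ranking was made on the members, so these shares have no test. The first was AAATAA, in 55.5% of members, against 39.1% of lower-ranked regions and 38.7% of eligible windows. The second, ACAGTG, is not A+T rich. It was in 24.7% of members, against 12.8% of lower-ranked regions and 8.15% of eligible windows. In the replicates it was in 25.6%, 24.3% and 23.3% of the regions, against 10.98%, 12.4% and 11.6% of lower-ranked ones. It was in 20.8% of far intronic peaks and 19.1% of peaks at start sites, so it was not confined to members.

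The words with CAGTG had an orientation about the summit. Words were called outward when they read 5′ to 3′ away from the summit. CAGTGC and CAGTGT, chosen after seeing the words of the members, matched 196 times in members, and 142 of these matches read outward (72.4%), against 259 of 491 (52.7%) in lower-ranked regions of the same class. The replicates gave 75.7%, 72.3% and 71.1% (73.0% ± 2.42, SD, n = 3), against 49.9%, 54.8% and 55.0% (53.2% ± 2.90, SD, n = 3). The values did not overlap, and no test is given since the words were chosen on these members. In IDR peaks of farther introns 302 of 395 matches read outward (76.5%), and between genes 214 of 267 did (80.1%), while at start sites 353 of 671 did (52.6%). CAGTGG and ACAGTG ran the other way, with 20.4% ± 1.91 and 27.6% ± 2.13 outward in members, against 47.1% ± 0.74 and 44.5% ± 3.22 in lower-ranked regions (SD, n = 3). The other IDR peaks shared this direction, also at start sites. CAGTGG read outward in 24.8% of matches in farther introns, 22.5% between genes and 33.5% at start sites. ACAGTG did so in 25.2%, 25.5% and 35.2%, in the same order. GATAA and AATAAA, given as words of another kind, read outward in 45.2% ± 3.04 and 46.1% ± 3.18 of matches in members, against 51.2% ± 1.22 and 49.7% ± 0.81.

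Matches of CAGTGC and CAGTGT were also counted by distance. Of them, 10.7% lay within 20 bp of the summit in members, against 19.96% in lower-ranked regions. In other IDR peaks the share was 12.2% in farther introns, 13.9% between genes and 20.6% at start sites. The replicates gave 16.8%, 12.4% and 11.6% in members, against 18.3%, 20.1% and 21.8% in lower-ranked regions, and each replicate was lower in members. At least 1 outward match was present in 126 members (23.8%), against 241 of 1976 lower-ranked regions (12.2%) and 7.95% of eligible windows. The share was higher in far intronic peaks, with 253 of 864 (29.3%). Both sides carried an outward match in 12 members (2.26%), against 6 lower-ranked regions (0.30%) and 39 far intronic peaks (4.51%). The windows of NFAT, CHES-1-like, Myo61F and CG32264 printed above are 4 of the 12. Annotated transposable elements touched 1 member window (0.19%), against 11 lower-ranked windows (0.56%) and 3.44% of eligible windows. A shared stretch of 20 bases was found between the windows of 2 members.

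**Figure D5:**
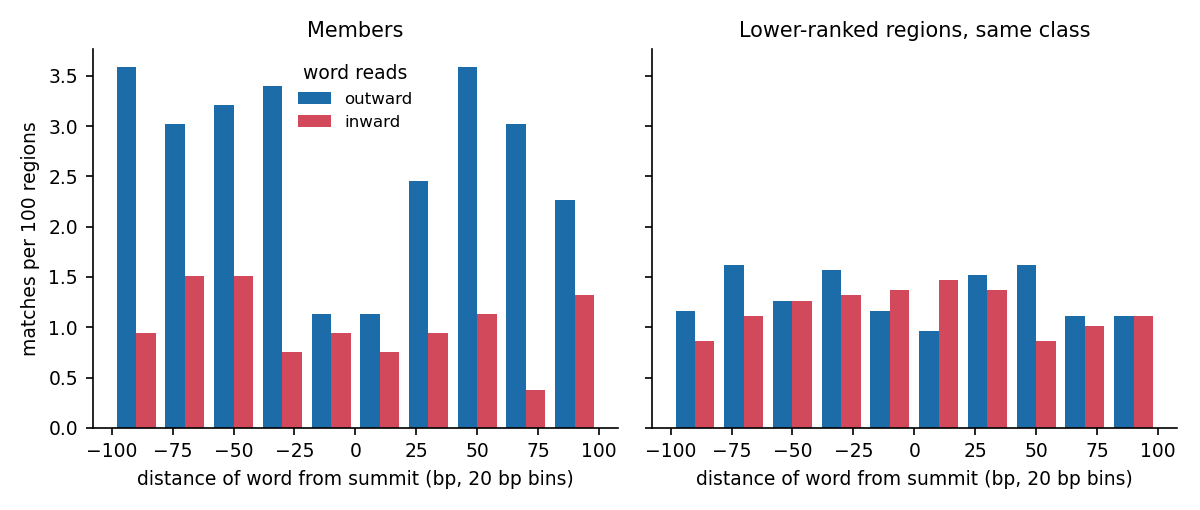
Matches of CAGTGC and CAGTGT per 100 regions in 20 bp bins of distance from the summit, outward in blue and inward in red, for members on the left and lower-ranked regions of the same class on the right. Outward matches in members reach 3.58 per 100 regions in the bins away from the summit and stand at 1.13 in the bins next to it.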

How the data were processed

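Chromatin immunoprecipitation sequencing was described per the labels for 3 biological replicates of 1 group, with sonicated fragments of 200 to 800 bp. Per the submitters' file listing, the authors made 1 relaxed list per replicate (30000 regions each) and a pooled one (25066 regions), both against a control, and derived the IDR list of 3684 peaks from them, all in dm6. Lists in dm3 were not used here. Which aligner, caller and IDR threshold were used is not given in the sources used here. Each deposited signal value is a score on the authors' own scale. The deposited −log10 q of each region was read and supports no result. The deposited summit offset, in bp from the region start, placed each summit. No read counts were used, so depth is unknown.

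Summits were set against Ensembl gene models of BDGP6 on 6 chromosomes, with python 3.11.15, numpy 2.4.6, pandas 2.3.3 and scipy 1.17.1. No region ended beyond its chromosome (0 regions). The rule was repeated on the 3684 highest regions of each replicate, and lower-ranked regions were the others of the same list overlapping none of them. Overlap needed at least 1 bp. Eligible sequence is every base the rule could have chosen. Windows were 201 bp, and eligible windows were taken every 1000 bases. The functions were tested on simulated data. Differences per replicate were tested with an exact sign-flip permutation test, whose smallest two-sided p is 0.25. Regions and genes are not replicates.

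Named genes were the 20 strongest members found in all 3 replicates, up to 4 hosts per gene list, the strongest member of each arm, chif, ush, hosts with 3 or more members, and members next to the bounds. The words of the orientation results, the members in no replicate, and the 4 windows with words on both sides were chosen after their values were seen. The members, gene lists and motifs were chosen with earlier results of these data known. Alternatives varied the position rule, the number of highest regions, the window, the overlap and the replicates.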

Additional observations from a re-analysis of the deposited data

How the results depend on the processing

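The 6 contrasts of density, first introns, downstream position, G+C content (against 2 backgrounds) and rank kept the direction of their mean in all 43 alternatives, 3 of which were chosen after seeing the data. No alternatives were run for occupancy of the nearest start, motifs against start-site peaks or word orientation. The setting without an exon within 100 bp was not run for G+C content, motifs or words. The number of members was 238 with bounds of over 500 to 1000 bp and 292 with bounds of over 1000 to 2000 bp. The mean number over the remaining replicates ran from 482.5 to 537.5 with 1 replicate left out. The share of members found in every replicate was 33.2% with the 1842 highest regions of each replicate, 79.2% with 7368, and 94.0% in any region of the replicate lists, against 33.6%, 81.0% and 94.9% of the other IDR peaks. With a replicate left out it ran from 62.8% to 74.7%, the highest without replicate 1, where fewer replicates must hold the peak. The number of motifs higher in members in every replicate was 4, with 2 in windows of 50 bp either side, 7 in windows of 200 bp, and 4 to 6 with a replicate left out. The cause was not tested. Of 84 motif alternatives, 11 turned direction. With 1842 highest regions the Sox motif was at -0.49 points. In windows of 50 bp either side GAGA was at -0.55, the Dref motif at 0.0040, the M1BP motif at -0.050 and Sox at -0.22. In windows of 200 bp the CA repeat was at 3.89 and GAGA at 8.40, higher in all 3 replicates. With a replicate left out the E-box CAGCTG ran from -0.47 to 0.63, Sox from -0.021 to 0.93, the CRE motif from -0.35 to 0.022 and the CA repeat from -1.08 to 0.022 points. GATA ran from 2.67 to 6.29 points, and the homeodomain motif stood at 1.33 to 1.82 under the other windows and with 1842 highest regions. With a replicate left out, the log2 density ratio ran from 1.24 to 1.39, the first-intron difference from 16.01 to 16.8 points, and the downstream difference from -3.67 to -2.75 points. The G+C difference ran from -5.32 to -4.18 points against lower-ranked regions and from -1.66 to -0.83 against the other highest regions, and the rank difference from -6.58 to -0.33%. No paired analysis was possible because the study has 1 group, with no second group to share replicate numbers. Region classes were compared within each replicate. Depth is unknown, no control library was analysed, and the exact sign-flip test over 3 replicates cannot give a p under 0.25.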
